A study of Rattus norvegicus with 11 samples.

Results

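The 7 genes described here are markers of microglia and of leukocytes: Aif1, Itgam, Cd68, Tyrobp, Ptprc, Csf1r and Cx3cr1. They were taken from the count table by their Ensembl rat gene IDs, 7 of the 32623 IDs listed. The rule names IDs and sets no cut on a measured value, but the genes were chosen with earlier results of these data known. Counts of the 7 genes printed beside shares of all tested genes are therefore descriptions. The names came with the list of IDs. The gene table used here pairs 0 rat Ensembl IDs with a symbol, so the pairing of ID and name was not checked. In that list Aif1 is ENSRNOG00000000853, Itgam is ENSRNOG00000019728, Cd68 is ENSRNOG00000037563, and Tyrobp is ENSRNOG00000020845. Ptprc is ENSRNOG00000000655, Csf1r is ENSRNOG00000018414, and Cx3cr1 is ENSRNOG00000018509.

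RNA came from the ipsilateral spinal cord of adult male rats weighing 350 to 400 g, whose strain is not given in the sources used here. Naive rats, for which the design text names no drug and no electrode, gave 3 libraries. The sham group (labelled PTX+Sham SCS, 5 libraries) received intraperitoneal paclitaxel, a taxane used against tumours whose side effects include a painful neuropathy, and had a spinal cord stimulation (SCS) electrode placed. Each dose was 1.5 mg/kg, given on days 1, 3, 5 and 7. The stimulated group (labelled PTX+SCS, 3 libraries) received the same drug and electrode and was stimulated at 50 Hz with pulses of 0.2 ms. No group analysed here had the drug or the electrode alone, so drug and electrode cannot be told apart. Libraries are named by group and replicate number: the naive group holds 1 to 3, the sham group 1 to 5, and the stimulated group SCS 1, SCS 2 and SCS 5.

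Microglia are the resident macrophages of the spinal cord. Their survival depends on signalling through Csf1r, and neurons address them through the fractalkine receptor Cx3cr1. Aif1 (the protein Iba1) and Itgam (CD11b) are the usual stains for them in the dorsal horn. In models of nerve injury microglia enlarge, divide and take up debris, and Cd68, a lysosomal glycoprotein of phagocytes, marks that state. Ptprc (CD45) is carried by all nucleated blood cells, and at a lower level by microglia. The 7 genes do not separate microglia from macrophages or monocytes that entered the cord. Markers of those cells and of the tissue itself could not be read, because the file gives IDs without names, and the part of infiltrating cells in the results was not tested. In bulk tissue, a change in the number of cells of a type and a change in RNA per cell cannot be told apart.

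Total counts ran from 11243288 to 56775931 per library, and all 7 genes passed the filter on low counts, which kept 15758 genes. The least covered value was Cd68 in naive 1, with 45 counts, and the best covered was Csf1r in SCS 1, with 11153. Levels are given as CPM (counts divided by TMM-scaled library sizes), which are not corrected for gene length, so they are compared between libraries and not between genes. Fold changes and adjusted p-values come from edgeR's quasi-likelihood test fitted over all genes tested, with Benjamini-Hochberg adjustment and a threshold of 0.05. They are printed with a standard error (SE) or a 95% confidence interval.

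All 7 genes had their lowest mean in naive libraries, a higher one in sham libraries and the highest in stimulated libraries. In 28.1% of all tested genes the mean log2 CPM rose in that order. Summed over the 7 genes the level was 222 ± 3.2 CPM in naive libraries (SD, n = 3), 335 ± 72 CPM in sham libraries (SD, n = 5) and 686 ± 193 CPM in stimulated libraries (SD, n = 3). Csf1r gave 53.1% to 58.6% of the counts in this sum in every library. Naive 3 had the largest total and the lowest sum, 219 CPM, and sham 4 had the smallest total and a sum of 397 CPM. SCS 2 had the highest sum, 881 CPM, at a total of 18633243 counts. A relation between sum and total over the 11 libraries was not tested.

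**Figure D1:**
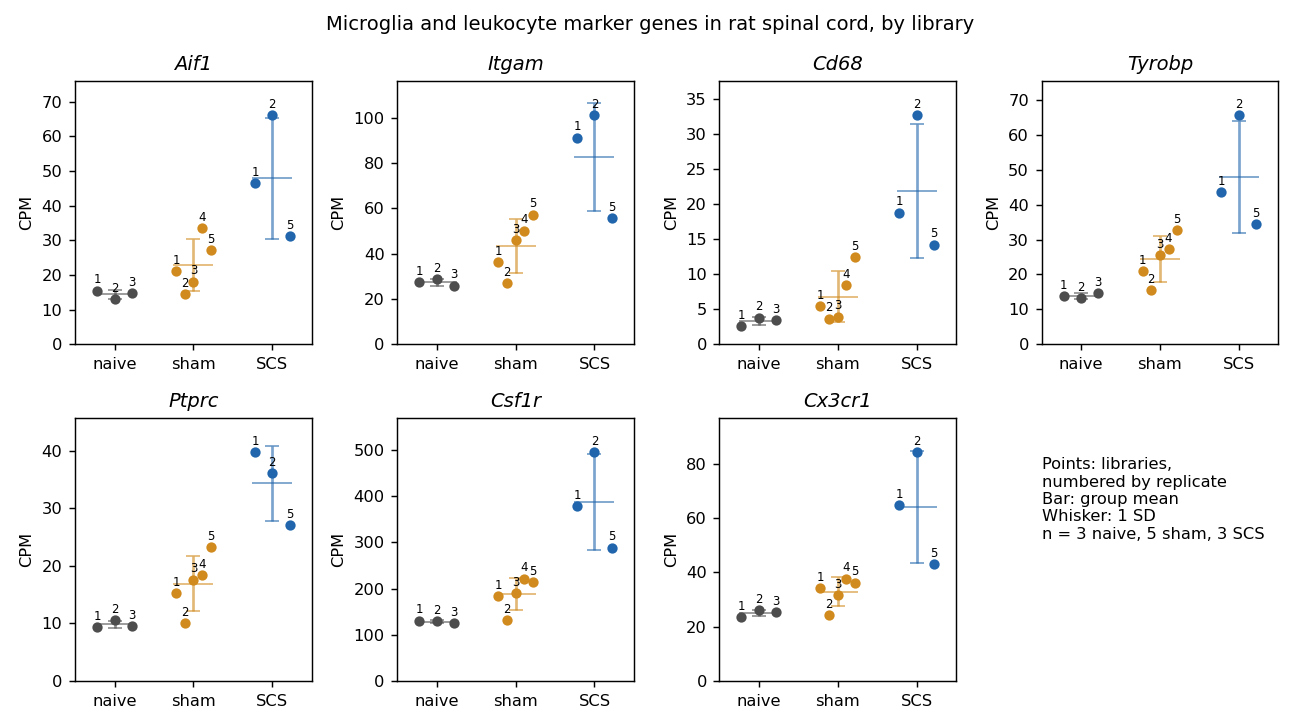
Level of each of the 7 marker genes in CPM (vertical axes, each from 0) in the naive, sham and SCS libraries. Points are libraries numbered by replicate, bars are group means and whiskers 1 SD. Sham 2 is the lowest sham library and SCS 5 the lowest stimulated library in all 7 panels.

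Csf1r encodes the receptor for colony stimulating factor 1 and interleukin 34, on which microglia depend. Its level was 130, 130 and 125 CPM in naive 1 to 3 and 183, 132, 190, 221 and 214 CPM in sham 1 to 5. SCS 1, SCS 2 and SCS 5 held 378, 496 and 289 CPM. No stimulated library overlapped a sham library, and no sham library overlapped a naive one, although sham 2, at 132 CPM, stood close to naive 1, at 130 CPM. Csf1r rose 2.06-fold in stimulated against sham libraries (log2 fold change 1.04 ± 0.19, SE, edgeR adjusted p = 0.0232).

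Cx3cr1 encodes the receptor for fractalkine, a chemokine that neurons display. It stood at 23.6, 26.0 and 25.3 CPM in naive libraries and at 34.2, 24.1, 31.7, 37.7 and 36.2 CPM in sham 1 to 5. In SCS 1, SCS 2 and SCS 5 it was at 64.9, 84.3 and 43.1 CPM. The stimulated libraries lay above all others, while sham 2 fell among the naive libraries. Cx3cr1 rose 1.95-fold in stimulated against sham libraries (log2 fold change 0.97 ± 0.19, SE, edgeR adjusted p = 0.0301).

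Itgam encodes the alpha chain of a complement receptor, and Tyrobp an adaptor (DAP12) that carries the signal of Trem2 and related receptors. Itgam was at 25.9 to 28.9 CPM in naive libraries, at 26.9 to 57.2 CPM in sham libraries and at 91.1, 101 and 55.8 CPM in SCS 1, SCS 2 and SCS 5. SCS 5 lay below sham 5, so these groups overlapped. Tyrobp was at 13.2 to 14.7 CPM in naive, 15.4 to 32.6 CPM in sham and 43.7, 65.6 and 34.4 CPM in stimulated libraries, with no overlap between any pair of groups. In stimulated against sham libraries their log2 fold changes of 0.94 ± 0.25 (Itgam, SE, edgeR adjusted p = 0.0755) and 0.97 ± 0.24 (Tyrobp, SE, edgeR adjusted p = 0.0631) did not pass.

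Ptprc encodes the phosphatase CD45, a general leukocyte marker. Naive 1 to 3 held it at 9.40, 10.5 and 9.47 CPM, and sham 1 to 5 at 15.2, 10.1, 17.6, 18.4 and 23.2 CPM. SCS 1, SCS 2 and SCS 5 held 39.7, 36.1 and 27.0 CPM, and it was the only one of the 7 genes that peaked in SCS 1 and not in SCS 2. Again sham 2 fell among the naive libraries and the stimulated libraries stood clear of the sham libraries. Ptprc rose 2.03-fold in stimulated against sham libraries (log2 fold change 1.02 ± 0.21, SE, edgeR adjusted p = 0.0293).

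Aif1 encodes Iba1, a calcium-binding protein that bundles actin in microglia and macrophages. It was at 13.02 to 15.4 CPM in naive libraries, at 21.1, 14.4, 18.1, 33.5 and 27.2 CPM in sham 1 to 5, and at 46.5, 66.1 and 31.1 CPM in SCS 1, SCS 2 and SCS 5. SCS 5 lay below sham 4, so stimulated and sham libraries overlapped. Its log2 fold change between them was 1.07 ± 0.29 (SE, edgeR adjusted p = 0.0768), which did not pass.

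Cd68, the lysosomal marker, had the largest fold changes of the 7 genes and the largest spread. It was at 2.61, 3.80 and 3.47 CPM in naive 1 to 3, from 45, 93 and 198 counts. Sham 1 to 5 held 5.47, 3.67, 3.96, 8.48 and 12.5 CPM, so sham 2 and sham 3 lay near the naive libraries and sham 5 at 3.79 times their mean. In SCS 1, SCS 2 and SCS 5 it was at 18.8, 32.7 and 14.2 CPM, above every sham library. The log2 fold change of stimulated against sham libraries was 1.67 ± 0.40 (SE, edgeR adjusted p = 0.0575), which did not pass, with a 95% interval of 0.76 to 2.58.

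**Figure D2:**
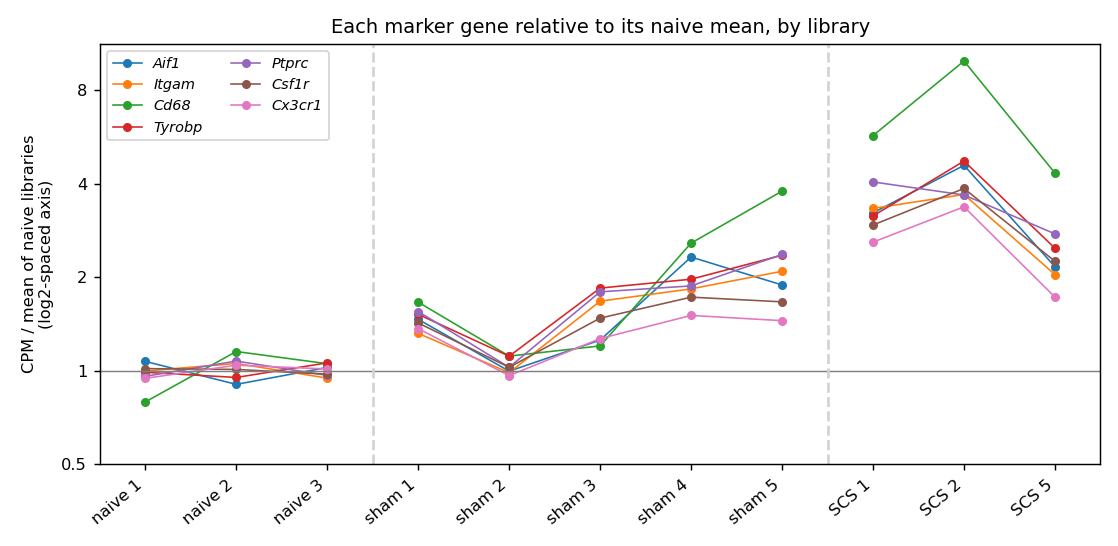
Level of each marker gene divided by its mean over the naive libraries (vertical axis, log2-spaced) in each of the 11 libraries; lines join the same gene within a group, whose libraries have no order. Sham 2 lies at 0.964 to 1.11 times the naive mean and SCS 2 at 3.37 to 9.94 times.

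Within the sham and within the stimulated group the 7 genes shared their lowest library but not the order of the others. Relative to the naive means, sham 2 held the genes at 0.964 (Cx3cr1) to 1.11 times (Cd68), sham 1 at 1.32 to 1.66 times, sham 3 at 1.20 to 1.85 times, sham 4 at 1.51 to 2.58 times and sham 5 at 1.45 to 3.79 times. Aif1, Csf1r and Cx3cr1 were higher in sham 4 than in sham 5, and Itgam, Cd68, Tyrobp and Ptprc were lower there. Aif1, Cd68 and Cx3cr1 were also higher in sham 1 than in sham 3, and the other 4 genes were lower. SCS 5 held them at 1.73 to 4.33 times, SCS 1 at 2.59 to 5.72 times and SCS 2 at 3.37 to 9.94 times. Cx3cr1 was the lowest of the 7 on this scale in all 3 stimulated libraries, and Cd68 the highest. Over the 21 pairs of the 7 genes the Pearson r of log2 CPM was 0.931 to 0.987, across 11 libraries of 3 groups. These values include the differences between the groups. Counts out of 7 are therefore not counts of 7 separate results. Sham 2 was the lowest sham library for 7 of 7 genes, which held for 18.7% of all tested genes. SCS 5 was the lowest stimulated library for 7 of 7 (30.6% of all tested genes), and SCS 2 the highest of all 11 libraries for 6 of 7 (20.1%).

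The spread between libraries of a group was measured as the coefficient of variation. The coefficient of variation of the 7 genes had a median of 5.53% in naive libraries, where the median over 14460 genes with a mean of at least 1 CPM was 5.71%. In sham libraries it was 27.5% for the 7 genes against 9.21% over all of these genes, and in stimulated libraries 32.1% against 9.39%. These medians are a description and were not tested. Csf1r varied least in naive libraries, at 2.23%, and Cd68 most in sham libraries, at 54.2%.

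Sham against naive libraries compares groups that differ, in the stated design, by paclitaxel and the electrode together. By the edgeR test 0 of the 7 genes passed, where 0.133% of all tested genes were called higher. The fitted log2 fold changes were positive for 7 of 7 genes, from 0.39 (Cx3cr1) to 1.03 (Cd68), with a median of 0.66 beside 0.01 over all tested genes. Without sham 5 the value of Cd68 was 0.66, and with a surrogate variable the 7 values were 0.04 (Cx3cr1) to 0.45 (Ptprc). At an unadjusted p under 0.05 there were 4 of 7, Itgam, Tyrobp, Ptprc and Csf1r, where 5.43% of tested genes had such a p and were higher. The groups did not overlap for 2 of 7, Tyrobp and Csf1r, against 3.96% of tested genes. Ptprc had the smallest p, at 0.79 ± 0.23 on the log2 scale (SE, edgeR adjusted p = 0.416). Its 95% interval reached from 1.22-fold to 2.44-fold, while those of Aif1, Cd68 and Cx3cr1 included no change. With all libraries the edgeR fit called 22 genes over the whole table. Without sham 2 (56 genes called in all), Ptprc passed (log2 fold change 0.94, edgeR adjusted p = 0.0229). It also passed with DESeq2 (133 genes called in all), at 0.78 (DESeq2 adjusted p = 0.0203). Its adjusted p ran from 0.0203 to 1 over 22 alternatives.

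All sham and stimulated rats had the drug and the electrode. Stimulated against sham libraries thus compares groups that differ, in the stated design, only by the current. The labels state no batch or other covariate, so a further difference between these groups was not tested. By the edgeR test 3 of the 7 genes passed and were higher (Csf1r, Cx3cr1 and Ptprc), where 3% of all tested genes were called higher. The log2 fold changes of the 7 genes lay between 0.94 (Itgam) and 1.67 (Cd68), with a median of 1.02 beside -0.01 over all tested genes. Stimulated and sham libraries did not overlap for 5 of 7 genes, all but Aif1 and Itgam, against 6.23% of tested genes that were higher without overlap. All 7 had an unadjusted p under 0.05, where 11.9% of tested genes had one and were higher. The adjusted p of the other 4 genes was 0.0575 to 0.0768. With DESeq2 (1136 genes called in all) or limma-voom (628) 7 of 7 genes passed. In a fit of only these 2 groups (140 genes called in all) 0 did, with log2 fold changes of 1.05 for Csf1r and 1.03 for Ptprc. With a surrogate variable (1 gene called in all) 0 did, and the 7 log2 fold changes were 0.08 (Tyrobp) to 0.48 (Ptprc).

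This count moved with single libraries, as did the number of genes called over the whole table, 563 with all libraries. No member passed without SCS 2 (36 genes called in all), without sham 1 (175) or without sham 3 (230). There was 1 without SCS 1 (510) or without naive 3 (284), and there were 6 without sham 5 (1057) and 7 without SCS 5 (943). Without SCS 2 the log2 fold change of Csf1r was 0.83 (edgeR adjusted p = 0.122), that of Cx3cr1 0.73 (0.125) and that of Ptprc 0.99 (0.158). The adjusted p ran from 2.46e-05 to 0.712 for Csf1r over 22 alternatives, from 7.04e-06 to 0.853 for Cx3cr1 and from 3.7e-05 to 0.825 for Ptprc.

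**Figure D3:**
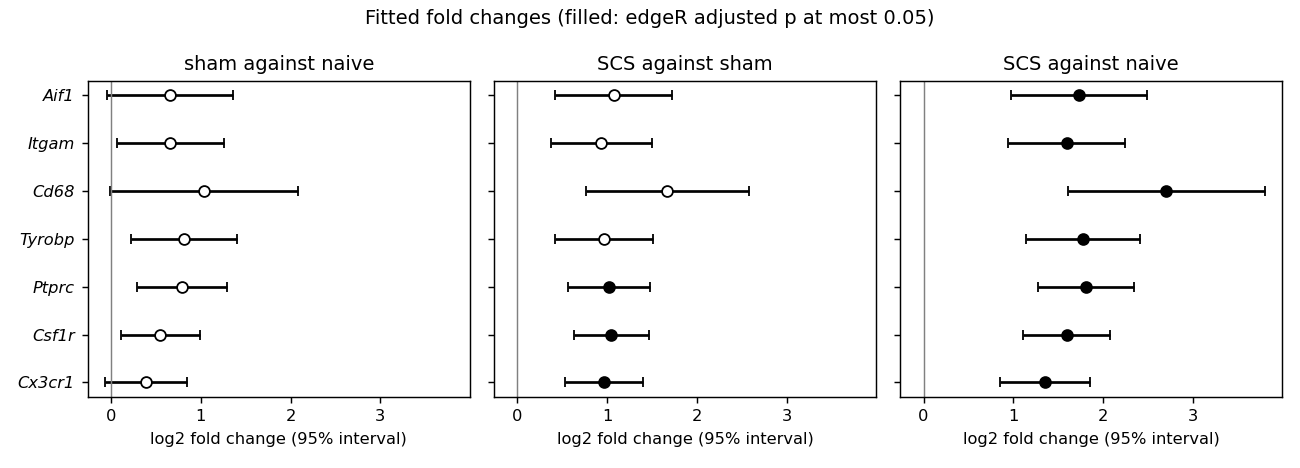
Fitted log2 fold change of each marker gene with its 95% interval (horizontal axis) in the 3 comparisons; filled points have an edgeR adjusted p of at most 0.05. None of the 7 points is filled in sham against naive, 3 in SCS against sham and 7 in SCS against naive.

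Between stimulated and naive libraries the drug, the electrode and the current all differed, and 7 of 7 genes passed the edgeR test and were higher, where 10.1% of all tested genes were called higher. Cd68 rose 6.53-fold (95% interval 3.05 to 14.0), its mean being 3.29 ± 0.61 CPM in naive (SD, n = 3) and 21.9 ± 9.6 CPM in stimulated libraries (SD, n = 3), with an edgeR adjusted p of 0.00731. Ptprc rose 3.50-fold (2.41 to 5.08) and had the smallest adjusted p of the 7, 0.0014. Tyrobp rose 3.43-fold, Aif1 3.32-fold, Itgam 3.03-fold, Csf1r 3.02-fold and Cx3cr1 2.56-fold, with adjusted p-values of 0.002 to 0.0103. The groups did not overlap for 7 of 7 genes, against 18.1% of tested genes that were higher without overlap. With any 1 library left out 6 or 7 genes passed (1018 to 2786 genes called in all). The exception was Aif1, which did not pass without naive 2. With a surrogate variable, of whose variance 75.4% lay between the groups, 1 gene was called in the whole table against 2342 without it. None of the 7 passed in that fit, and their log2 fold changes were 0.26 (Aif1) to 0.93 (Ptprc). This comparison shares its naive libraries with the first and its stimulated libraries with the second.

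Unequal change among the 7 genes was measured by ratios of counts within a library, which do not depend on scaling. Cd68 had the largest log2 fold change of the 7 genes in all 3 comparisons, and Cx3cr1 the smallest in those with naive libraries. Their ratio therefore sets the extremes side by side, and its direction is not a separate result. Cd68 reached 11.1%, 14.6% and 13.7% of the Cx3cr1 counts in naive 1 to 3, and 16.0%, 15.2%, 12.5%, 22.5% and 34.4% in sham 1 to 5. In SCS 1, SCS 2 and SCS 5 it reached 29.0%, 38.8% and 33.0%, above every naive library. SCS 2 lay above sham 5, and SCS 1 and SCS 5 lay below it. Stimulated libraries exceeded naive ones by 1.36 on the log2 scale (two-sided exact permutation p = 0.1, adjusted over 6 ratio tests 0.15) and sham ones by 0.83 (exact permutation p = 0.0893, adjusted 0.15). The smallest p that 3 against 3 libraries allow is 0.1, so the first of these could not pass. The sham to naive difference of 0.53 had an exact permutation p of 0.161 (adjusted 0.193).

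Ptprc counts were 37.4% to 40.4% of Cx3cr1 counts in naive libraries and 41.7% to 64.1% in sham libraries, without overlap. The sham ratio was 1.28 times the naive one (0.36 on the log2 scale, two-sided exact permutation p = 0.0536, adjusted 0.15). Stimulated libraries spread from 42.8% in SCS 2 to 61.3% in SCS 1 and 62.7% in SCS 5, inside the sham range, and differed from sham by 0.12 on the log2 scale (exact permutation p = 0.589, adjusted 0.589). SCS 2, the library with the highest level of 6 of the 7 genes, thus had the lowest Ptprc to Cx3cr1 ratio of the stimulated libraries. Between stimulated and naive libraries the Ptprc to Cx3cr1 difference was 0.48 on the log2 scale, without overlap (two-sided exact permutation p = 0.1, adjusted 0.15). That is the smallest p that 3 against 3 libraries allow. None of the 6 ratio tests passed after adjustment, and those of stimulated against naive libraries could not.

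**Figure D4:**
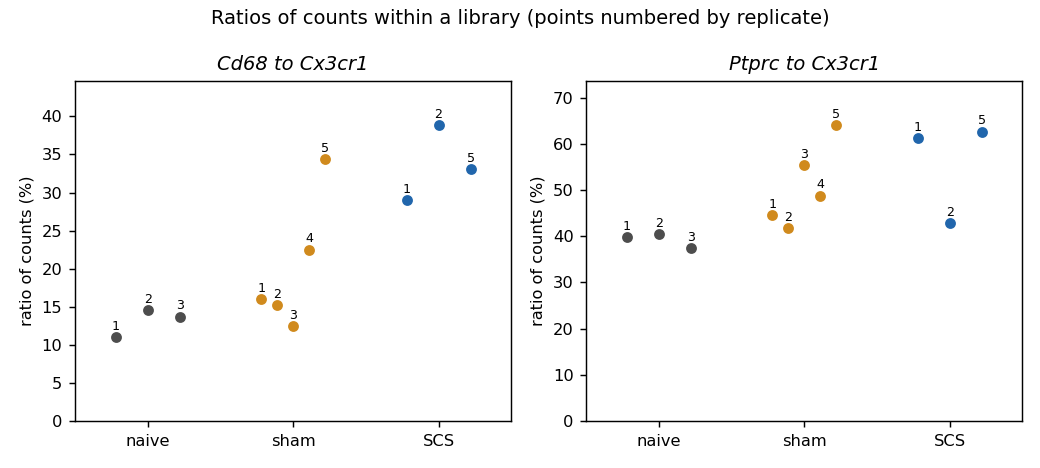
Counts of Cd68 (left) and Ptprc (right) as a percentage of Cx3cr1 counts in the same library (vertical axes, from 0), with points numbered by replicate. The Cd68 ratio is 11.1% to 14.6% in naive and 29.0% to 38.8% in SCS libraries, and sham 5, at 34.4%, lies among the SCS libraries.

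Among 14453 other genes with a mean of at least 1 CPM, those most like the mean profile of the 7 genes over the 11 libraries were ENSRNOG00000050697 (Pearson r 0.996 across 11 libraries of 3 groups) and ENSRNOG00000007060 (Pearson r 0.995). Both r values include the differences between the groups and describe likeness only. The file does not pair these IDs with names. ENSRNOG00000050697 was at 29.9 to 33.6 CPM in naive libraries, at 30.7 CPM in sham 2 and 64.6 CPM in sham 5, and at 72.7 CPM in SCS 5 and 153 CPM in SCS 2. ENSRNOG00000007060 rose in stimulated against sham libraries (log2 fold change 0.70 ± 0.13, SE, edgeR adjusted p = 0.0152), and ENSRNOG00000050697, at 1.17 ± 0.28 (SE, edgeR adjusted p = 0.0596), did not pass.

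Since all 7 genes had higher means in sham and still higher means in stimulated libraries, the sequences upstream of their start sites were read from the RefSeq promoter table (build GRCr8, which is not the build of the counts). It held 5 of the 7 genes, Itgam, Cd68, Ptprc, Csf1r and Cx3cr1. The 250 bases before each start were searched on both strands for GAGGAA, the core bound by the myeloid transcription factor PU.1. The letters occurred in 4 of the 5, all but Cx3cr1, and in 23.3% of the 33469 promoters in the table. Printed are Ptprc, with the smallest p in stimulated against naive libraries (chr13:52259747-52259996, minus strand), and Cd68, with the largest fold change (chr10:54882442-54882691, minus strand), each 5′ to 3′ along the gene with the match in capitals. In Cd68 the match is on the opposite strand and begins 27 bases before the start, and in Ptprc it begins 163 bases before. A match describes the letters and does not show that the factor binds there.
Ptprc: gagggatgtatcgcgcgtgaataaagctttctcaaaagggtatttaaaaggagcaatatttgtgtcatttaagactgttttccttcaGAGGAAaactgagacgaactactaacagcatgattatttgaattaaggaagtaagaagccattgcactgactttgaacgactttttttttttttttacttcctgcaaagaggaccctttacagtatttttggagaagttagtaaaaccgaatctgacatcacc
Cd68: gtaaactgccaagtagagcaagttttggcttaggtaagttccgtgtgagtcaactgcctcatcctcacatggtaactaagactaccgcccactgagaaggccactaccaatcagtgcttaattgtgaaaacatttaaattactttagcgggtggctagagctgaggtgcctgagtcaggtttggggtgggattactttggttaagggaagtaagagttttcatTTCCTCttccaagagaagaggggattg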

How the data were processed

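RNA of 11 spinal cord libraries was sequenced after poly(A) selection with a directional kit, from 1 ug of total RNA, per the labels' protocols. The authors deposited raw counts per Ensembl rat gene ID. Per the submitters' processing notes the tools were HISAT2, featureCounts and DESeq2 and the build rn6. Versions, annotation, strand setting and filters were not given in the sources used here, so counts of overlapping or antisense genes are uncertain. Columns were matched to samples by title, and 17 other sample columns were left aside. Whether each library is a different rat is not in the labels, so the p-values reflect only how these samples vary, which may be technical.

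From the counts, filterByExpr of edgeR 4.0.16 (R 4.3.3) kept 15758 genes. TMM factors scaled the libraries, log2 CPM used a prior count of 2, and 1 robust quasi-likelihood fit (estimateDisp, glmQLFit, glmQLFTest, two-sided) held all 11 libraries with a term per group and 8 residual degrees of freedom. SE is the log2 fold change divided by the square root of F. Exact permutation tests of ratios were two-sided. Genes named were the 7 members and the 2 IDs with the most similar profile (Pearson r of log2 CPM with the mean of the z-scored members). Members and lists were chosen with earlier results of these data known. Marker lists of other cell types could not be matched to IDs and were not used. Alternatives covered scaling, the filter, the tool (DESeq2 1.42.0, limma 3.58.1), thresholds, fits of 2 groups, a surrogate variable (sva 3.50.0), a block for the replicate number, and fits without 1 library. The fit was first tested on simulated data. Between libraries of 1 group the counts differed by a chi-square of 4.98 to 27.8 per degree of freedom, so none looked like a duplicate.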

Additional observations from a re-analysis of the deposited data

How the results depend on the processing

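The log2 fold changes of all 7 genes stayed positive in all 3 comparisons under the 22 alternatives run for each, but their size varied. Not all of these could change the sign. The other thresholds left the estimates as they were, and leaving out a library of the group not compared moved them little. With a surrogate variable the log2 fold changes were 0.04 to 0.45 for sham libraries set against naive ones, 0.08 to 0.48 for stimulated libraries set against sham ones and 0.26 to 0.93 set against naive ones. In stimulated against naive libraries 7 of 7 genes passed (2342 genes called in all). With a surrogate variable 0 did (1 called in all), and with a block for the replicate number 2 did (672). There were 5 with a fold threshold of 1.5 (311), all but Aif1 and Itgam. With 1 library left out the number was 6 to 7 (1018 to 2786). In stimulated against sham libraries 3 passed (563 genes called in all). There the number was 7 with DESeq2 (1136), limma-voom (628), limma-voom with quality weights (491) or an adjusted p threshold of 0.1 (1243). It was 0 to 7 with 1 library left out (36 to 1057). It was 0 with a fold threshold of 1.5 (3 genes called in all), in the fit of 2 groups only (140), with a surrogate variable (1) and with the replicate block (5), where the log2 fold changes were 0.99 (Cx3cr1) to 1.74 (Cd68). In sham against naive libraries 0 passed (22 genes called in all). There 1 passed with DESeq2 (133) and 0 to 1 with 1 library left out (1 without sham 2, where 56 were called in all). Of the variance of the surrogate variable 75.4% lay between the groups. The causes of these changes were not tested. Same-numbered libraries had correlations of deviations of -0.174 to 0.13, and were not treated as pairs. The ratio results kept their direction and did not pass where they were tested. Without a naive or a stimulated library none could pass after adjustment, and the differences of fitted fold changes had no test. Over leave-outs the Cd68 to Cx3cr1 difference was 1.24 to 1.46 in stimulated against naive, 0.68 to 1.04 in stimulated against sham and 0.31 to 0.68 in sham against naive libraries. The Ptprc to Cx3cr1 difference was 0.39 to 0.66, 0.03 to 0.30 and 0.27 to 0.43. Cd68 in naive libraries rested on 45 to 198 counts, which limits its precision.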
